A study of Mus musculus with 6 samples.

Results

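The Irs1 locus on mouse chromosome 1 was examined in ATAC-seq peak lists from 3 pro-B cell lines, 2 libraries per line. ATAC-seq marks accessible chromatin by the places where a transposase inserts sequencing adapters, and a peak is a stretch where insertions pile up. All 3 lines are RAG2-deficient pro-B lines of strain 129SV from bone marrow, grown untreated in RPMI medium with serum, and each library was made from 200000 cells with 11 PCR cycles. CBE_1 and CBE_2 carry IgH alleles with a mutated IGCR1 (genotype IGCR1-/-), and WT carries intact IgH alleles. The labels name no clone or separate culture behind the duplicates, so differences between duplicates may be technical. With 1 WT line, genotype and line cannot be told apart. Pro-B identity was not checked here, because no gene positions of mm9 were at hand.

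The members are the accessible regions that overlap chromosome 1 from 82150000 to 82400000 in the mouse build mm9, a window of 250 kb in which Irs1 lies at about 82230000 to 82288000. This gene position is approximate and was not checked against an annotation of mm9, so regions are not assigned to exons, introns or untranslated parts. A region is the union of all peaks, from any of the 6 lists, that share 1 bp or more. The window held 22 of the 149724 regions of the genome, numbered 1 to 22 here by rising coordinate, from left to right. The locus was chosen by the presence of peaks in every CBE_1 and CBE_2 list and their absence from both WT lists. That difference is therefore given as a description, with no test.

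Irs1 encodes insulin receptor substrate 1, a docking protein without enzyme activity of its own. The insulin and IGF1 receptors phosphorylate it on tyrosines, and the phosphorylated sites recruit the regulatory subunits of phosphoinositide 3-kinase and the adaptor Grb2, which feed the Akt and Ras pathways. Irs1 is best known from muscle, fat and other insulin-responsive tissues, and the related Irs2 is the better known member of the family in cytokine signalling of blood cells. IGCR1, the element mutated in CBE_1 and CBE_2, is a control region of the immunoglobulin heavy chain locus on chromosome 12 that binds the insulator protein CTCF. Irs1 is thus on another chromosome than the mutation. In the gene order of RefSeq's GRCm38.p6 table, its nearest protein-coding neighbours are Nyap2, which encodes a neuronal adaptor of phosphoinositide 3-kinase, and Rhbdd1, which encodes a rhomboid protease.

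The Irs1 promoter is shown because region 14, described with its values below, covers the approximate position of the upper end of the gene, where its transcription starts. The sequence is that of RefSeq for GRCm38.p6, chromosome 1, minus strand, 250 bases ending at the base before the transcription start. Capitals mark an E-box (CACGTG) and GC boxes (GGGCGG), both searched on both strands, with no overlap between the matches.

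Irs1 promoter: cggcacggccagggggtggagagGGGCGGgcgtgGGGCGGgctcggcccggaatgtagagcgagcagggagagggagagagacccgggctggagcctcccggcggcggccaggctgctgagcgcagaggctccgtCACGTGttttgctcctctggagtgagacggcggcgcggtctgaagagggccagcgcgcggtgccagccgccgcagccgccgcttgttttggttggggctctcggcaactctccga

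The stretch held 28 CpG dinucleotides, against a median of 6 over the 27025 genes with a promoter in the same table, and 72.4% of its bases were G or C, against a median of 52%. Fewer CpG were found in 92.7% of these promoters. The E-box occurred at 1 place, bases 136 to 141 of the printed stretch, and 6.05% of the promoters held it. The GC box occurred at 2 places, bases 24 to 29 and 35 to 40, and 32.9% of the promoters held it. A match of letters is a description of the sequence, not a bound site.

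The locus was marked by 3 regions with peaks in all 4 CBE_1 and CBE_2 libraries and in neither WT library: region 11 at 82278857 to 82280908, region 13 at 82281912 to 82285537 and region 14 at 82285786 to 82290060. Over the genome 2272 regions, or 1.52%, had this pattern, called mutated-only below. Since the locus was chosen for it, the 3 of 22 are not read against that share. The 3 regions lay within a span of 11.2 kb, with the small region 12 between regions 11 and 13, and reached from 9.14 kb inside the approximate upper end of Irs1 to 2.06 kb beyond it. Neither WT list had a peak anywhere in this span. The nearest WT peaks to it ended at 82264475 and 82264437 on the left, 14.4 kb from region 11 in both lists, and began at 82290694 and 82290659 on the right, 0.633 and 0.598 kb from region 14. WT lists thus held called peaks on both sides of the span.

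**Figure D1:**
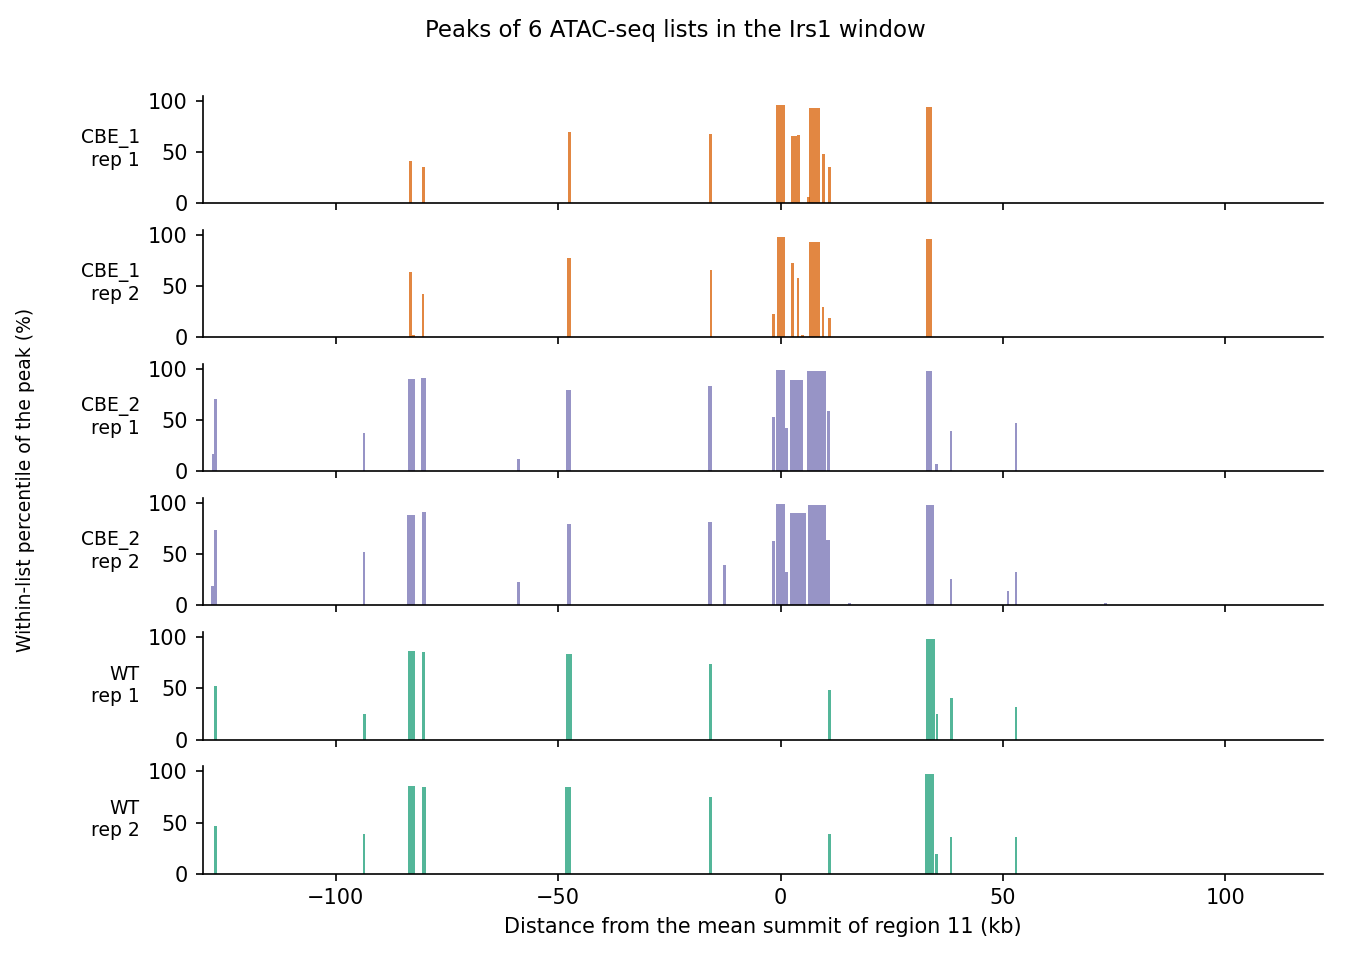
Peaks of the 6 lists in the Irs1 window. The x axis is the distance in kb from the mean summit of region 11, the height of a bar is the percent of the other peaks of the same list with a lower −log10 q-value, and peaks narrower than 0.6 kb are drawn 0.6 kb wide. CBE_1 and CBE_2 lists have tall bars in an 11.2 kb span at and to the right of 0 where WT lists have none, while the tall bar near 33 kb, region 17, is in all 6 lists.

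Region 11 was the strongest member. Its deposited folds over background were 28.8 and 24.4 in CBE_1 and 25.6 and 23.3 in CBE_2, and no WT peak was listed. Folds are the authors' values and belong to their own list, so each peak was also ranked by its −log10 q-value within its list. Region 11 stood at rank 2608 of 72318 and 1149 of 80242 peaks in CBE_1, and at rank 654 of 94665 and 756 of 97522 in CBE_2. In percentiles, the percent of the list's other peaks with a lower value, this was 96.3 and 98.5 in CBE_1 and 99.3 and 99.2 in CBE_2. All 4 lists therefore held region 11 among their top 4%. For comparison, the lowest fold of any listed peak was 2.06 and 2.09 in the WT lists, so a signal below about that level would not appear there.

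Region 14, which spans the approximate start of the gene, came next among the 3. Its folds were 24.6 and 19.1 in CBE_1 and 24.0 and 22.4 in CBE_2, with no peak in WT. It stood at percentiles of 92.9 and 93.0 in the CBE_1 lists and of 98.6 and 98.8 in the CBE_2 lists. In each of the 4 libraries it ranked below region 11. Region 13, between them, was weaker, with folds of 7.09 and 7.71 for CBE_1 and 15.8 and 15.4 for CBE_2. Region 13 stood at percentiles of 66.9 and 72.5 in the CBE_1 lists and of 89.6 and 90.6 in the CBE_2 lists, again with no peak in WT. In all 3 regions both CBE_2 libraries had higher percentiles than both CBE_1 libraries, on lists that were longer. With 2 libraries per line no exact permutation test between the lines can reach 0.05, and none was run.

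Among all 2272 mutated-only regions, ordered by the percentile in the library where each ranked lowest, region 11 took place 1, region 14 place 5 and region 13 place 288. The median of that lowest percentile over the 2272 was 30.0, and the values of the 3 were 96.3, 92.9 and 66.9. By width region 14 took place 2 and region 13 place 9, with 4275 and 3626 bp, and region 11 place 109 with 2052 bp. The median width was 755 bp over the mutated-only regions and 1053 bp over the 47767 regions present in all 6 libraries. The 3 regions are thus also wide. The locus was chosen with the extents of regions 11 and 14 known, so these places are a description and no separate support. A region that merges more or broader peaks is wider, so width and strength are not separate measures.

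**Figure D2:**
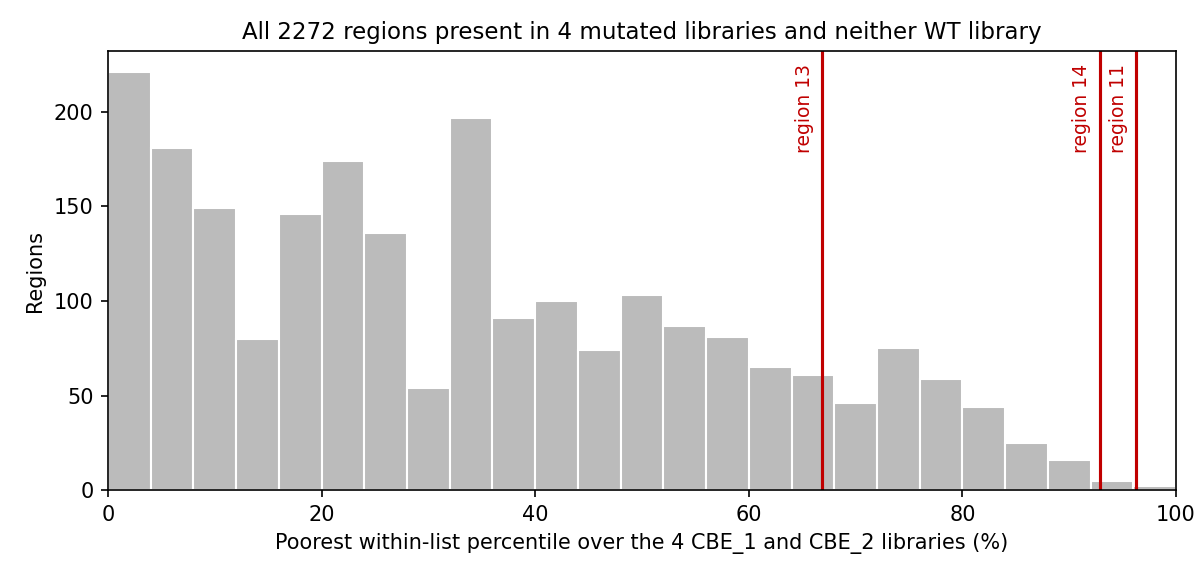
All 2272 regions present in 4 CBE_1 and CBE_2 libraries and in neither WT library, by the poorest of the 4 within-list percentiles (x axis, percent) and the number of regions per bin of the histogram (y axis). Lines mark the Irs1 regions 13, 14 and 11 at 66.9, 92.9 and 96.3, against a median of 30.0.

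Taken in order among the regions of all 4 CBE_1 and CBE_2 libraries, the mutated-only regions of the genome formed 1907 runs, of which 1636 were single regions with no mutated-only neighbour. Of the 1907, 66 had at least 3 members, like the run of regions 11, 13 and 14, and the longest had 9. In tiles of 250 kb, 151 of the 8907 tiles with a region held at least 3 mutated-only regions, the Irs1 tile among them. A cluster of 3 was therefore found elsewhere too.

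The summits of the strong regions lay at nearly the same base in both lines. In region 14 they were at 82288163 and 82288166 in CBE_1 and at 82288151 in both CBE_2 libraries, a range of 15 bp. In region 11 they were at 82279885 and 82279927 in CBE_1 and at 82279872 and 82279874 in CBE_2, a range of 55 bp. Over the 51166 regions present in all 4 of these libraries the median range was 81 bp, and 6.74% of them had a smaller range than region 14 and 33.6% a smaller one than region 11. The distance from the summit of region 11 to that of region 14 was 8.28 and 8.24 kb in CBE_1 and 8.28 kb in both CBE_2 libraries.

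Region 13 had more than 1 summit. CBE_1 replicate 1 listed 2 peaks in it, with summits at 82282640 and 82283897, and CBE_1 replicate 2 listed 3, with summits at 82282486, 82283932 and 82284751. The CBE_2 libraries listed 1 broad peak each, 3056 and 3479 bp wide, with summits at 82283909 and 82283874. The stronger CBE_1 peak was the one with its summit at 82283897 in replicate 1 and the one with its summit at 82282486 in replicate 2. The range of 1423 bp between the best summits of the 4 libraries therefore comes from which of these peaks was the better one in CBE_1 replicate 2.

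Region 14 was also split in CBE_1. Each CBE_1 library listed 3 peaks there, the main one 2450 and 2422 bp wide, with a weaker peak on either side. The CBE_2 libraries listed 1 peak of 4241 and 3954 bp. In region 11 all libraries listed 1 peak, of 1836 and 1773 bp in CBE_1 and 1945 and 2039 bp in CBE_2. Peaks covered 6.76 and 6.94 kb of the 11.2 kb span in CBE_1, 9.63 and 9.87 kb in CBE_2, and none of it in WT. The share of bases covered in both libraries of a pair out of those covered in either was 0.742 for the CBE_1 pair and 0.881 for the CBE_2 pair. Between the lines it was 0.658 to 0.702, lower than within either line.

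**Figure D3:**
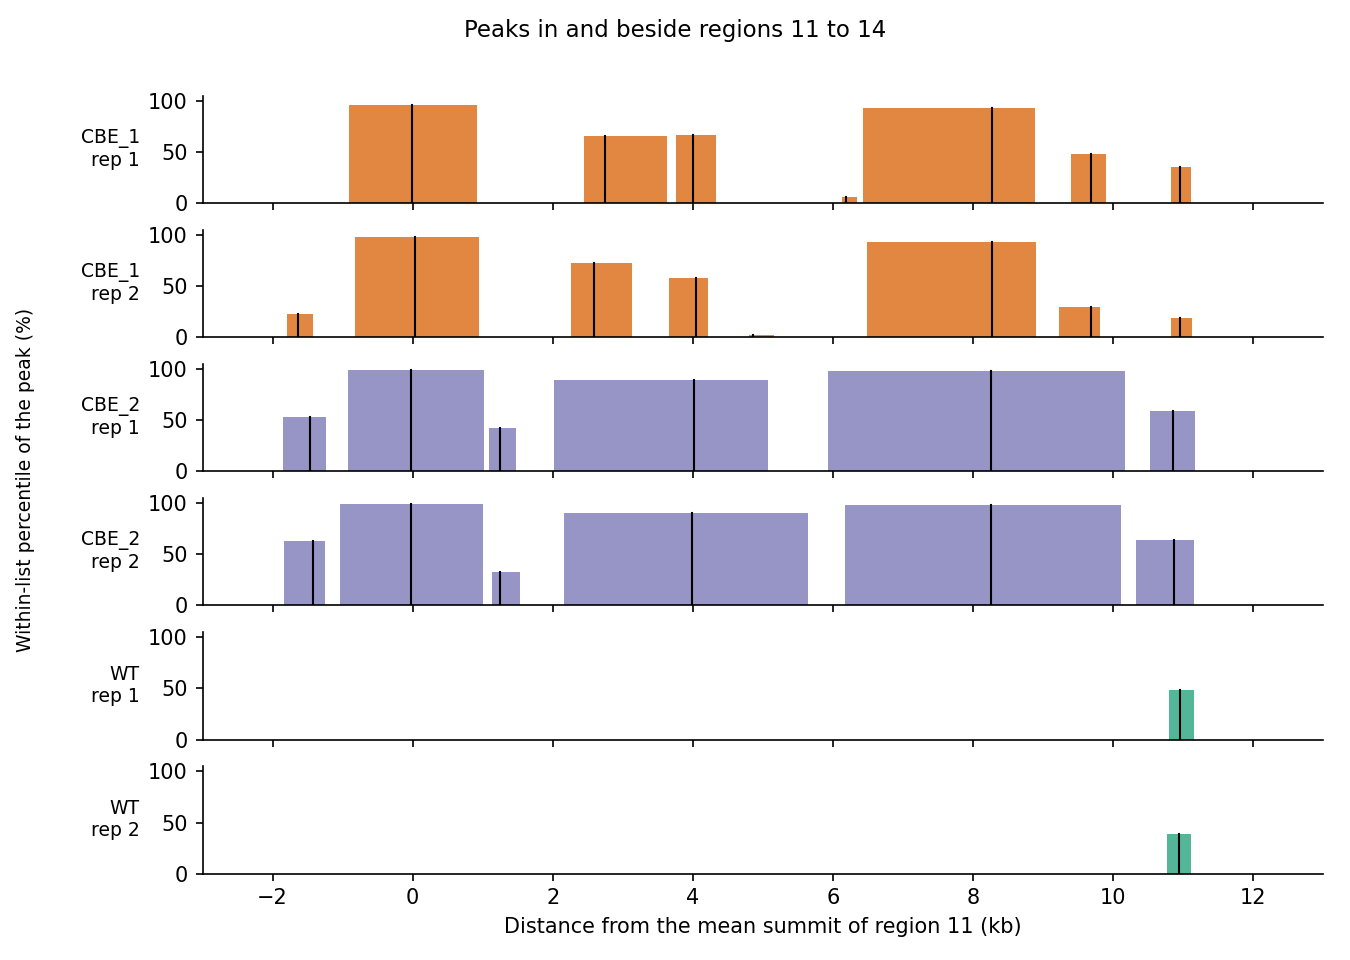
Peaks in and beside regions 11 to 14. The x axis is the distance in kb from the mean summit of region 11, bars span each peak with its within-list percentile as height, and black lines mark summits. Regions 13 and 14 are each 1 broad peak in CBE_2 and 2 or 3 peaks in CBE_1, and WT lists hold only the peak near 11 kb, region 15.

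Regions 10, 12 and 15 lay beside or between regions 11, 13 and 14, and of these only region 10 just missed the mutated-only pattern. Region 10, at 82278036 to 82278657 and 199 bp to the left of region 11, had a peak in CBE_1 replicate 2 and both CBE_2 libraries, at percentiles 22.9 in CBE_1 and 53.0 and 62.9 in CBE_2. It had none in CBE_1 replicate 1 or in WT. Region 12, at 82280978 to 82281424, between regions 11 and 13, was listed in both CBE_2 libraries at percentiles 42.1 and 32.4. Region 15, at 82290223 to 82291064 and 162 bp beyond region 14, was listed in all 6 libraries. Ranked among the 47767 regions that all 6 lists share, it stood at percentiles 16.8 and 3.01 in CBE_1, 28.2 and 33.7 in CBE_2 and 10.3 and 6.99 in WT. Both CBE_2 values were above both WT values, and the CBE_1 values fell on either side of them. Within whole lists it stood at 35.6 and 18.8 in CBE_1, 58.7 and 63.6 in CBE_2 and 48.2 and 38.7 in WT, so there both CBE_1 libraries were below WT. Region 15 was the only WT-listed region within 10 kb of region 11, 13 or 14.

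Regions present in all 6 libraries numbered 6 of the 22, against 31.9% over the genome. They were regions 4, 5, 7, 8, 15 and 17. The percentiles among shared regions, used above for region 15, rank the same set in every library and are given for the other 5 as well. This ranking was chosen after seeing the data, and percentiles within whole lists, which differ in length, are given where they change the order of the lines. The strongest, region 17 at 82312485 to 82314735, stood at percentiles 92.0 and 93.7 in CBE_1, 96.4 and 97.6 in CBE_2 and 97.3 and 95.4 in WT. It lies beyond the approximate upper end of Irs1, on the side of Rhbdd1. Its best summits lay within 24 bp in CBE_1 and CBE_2. Within its own list, region 11 ranked above region 17 in all 4 CBE_1 and CBE_2 libraries, where region 17 stood at 94.7, 96.2, 98.2 and 98.8.

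Regions 7 and 8 lie inside the approximate span of Irs1, near its lower end and in its upper part. Region 7, at 82231486 to 82232936, stood at 56.3 and 64.0 in CBE_1, 61.4 and 60.1 in CBE_2 and 62.3 and 68.3 in WT. Both CBE_2 values were below both WT values, and those of CBE_1 fell on either side of the lower WT value. Region 8, at 82263576 to 82264501, stood at 53.9 and 45.7 in CBE_1, 68.1 and 64.0 in CBE_2 and 44.7 and 49.0 in WT. CBE_2 was higher there than WT in both libraries, and CBE_1 overlapped WT. Within whole lists, region 7 stood at 69.4 and 77.8 in CBE_1, 79.6 and 79.4 in CBE_2 and 83.3 and 85.3 in WT, with both mutated lines below WT. Region 8 stood there at 67.5 and 65.6 in CBE_1, 83.4 and 81.6 in CBE_2 and 74.3 and 75.1 in WT, so both CBE_1 libraries were below WT in that ranking.

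Regions 4 and 5 lie to the left of the approximate gene span, on the side of Nyap2. Region 4, at 82195940 to 82197782, stood at 22.1 and 43.0 in CBE_1, 81.2 and 77.3 in CBE_2 and 70.4 and 70.2 in WT. Region 5, at 82199131 to 82200165, stood at 16.8 and 15.7 in CBE_1, 82.6 and 83.3 in CBE_2 and 67.1 and 66.4 in WT. At both, the CBE_1 libraries were below WT and the CBE_2 libraries above it. The nearest shared region outside the window on this side, at 82138118 to 82140246, stood at 24.6 and 20.9 in CBE_1, 75.8 and 78.7 in CBE_2 and 0.879 and 1.11 in WT. There both mutated lines were above WT. The nearest one on the right lay at 82720838 to 82722830. It stood at 85.1 and 86.7 in CBE_1, 83.0 and 89.7 in CBE_2 and 85.3 and 85.0 in WT, so the lines overlapped. Within whole lists it stood at 90.1 and 92.0 in CBE_1, 91.3 and 94.9 in CBE_2 and 93.7 and 93.1 in WT. Both CBE_1 libraries were below WT in that ranking.

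**Figure D4:**
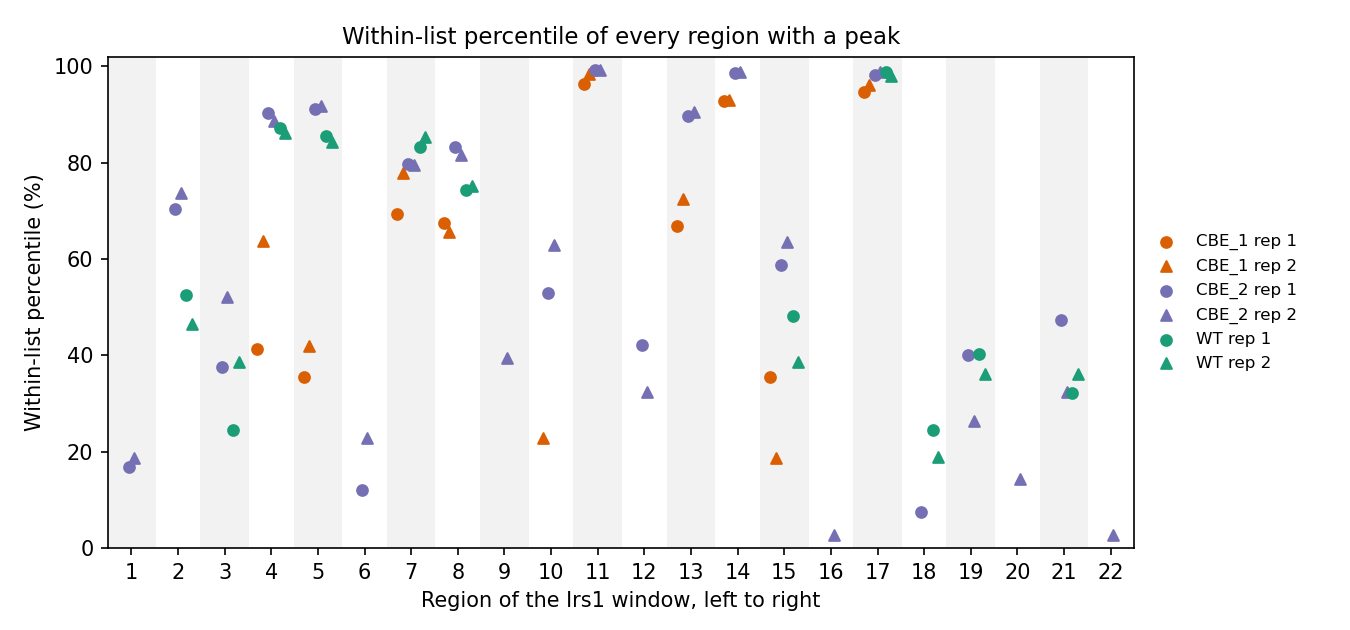
Within-list percentile (y axis, percent) of every region of the window (x axis, 1 to 22 from left to right) in each library that has a peak there, with circles for replicate 1 and triangles for replicate 2. Regions 11, 13 and 14 have CBE_1 and CBE_2 points only, and regions 4 and 5 have CBE_1 points below and CBE_2 points above those of WT.

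Apart from regions 10 and 12, 11 regions remain. Regions 2, 3, 19 and 21 were missing from both CBE_1 libraries and present in the other 4, a pattern that 5.05% of the genome's regions had. Region 2, at 82152512 to 82153024, stood at within-list percentiles 70.4 and 73.8 in CBE_2 and 52.5 and 46.5 in WT. The others stood between 26.4 and 52.1 in CBE_2 and between 24.6 and 40.4 in WT. Regions 1 and 6, with region 12, were listed in both CBE_2 libraries alone, at percentiles of 12.0 to 42.1, a pattern of 3.14% of all regions. Regions 9, 16, 20 and 22 were listed in 1 library, CBE_2 replicate 2 each time, at percentiles of 2.69 to 39.5, and 27.9% of all regions were listed in 1 library. Region 18, at 82314838 to 82315249, was listed in CBE_2 replicate 1 at 7.50 and in WT at 24.6 and 19.0, and like region 10 it belongs to the 20.4% of regions with other mixes.

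Patterns in which WT or CBE_1 alone had a peak did not occur in the window. Regions of both WT libraries alone, 8.68% of the genome's regions, numbered 0 of the 22. This count was 1 without CBE_2 replicate 1, where region 18 joined the pattern, and 1 with the window 100 kb wider on either side. Those of both CBE_1 libraries alone, 0.667% of all regions, and those missing from both CBE_2 libraries alone, 0.653%, also numbered 0. Every region listed in WT was also listed in at least 1 CBE_2 library. The share of WT-listed regions over the genome with this overlap is not given here, so the overlap is not read as a trait of the locus.

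In the whole window the CBE_1 lists had 12 and 15 peaks, the CBE_2 lists 18 and 21 and the WT lists 11 each. The WT lists were the longest, with 112241 and 106056 peaks. Counted as regions with a peak, there were 9 and 10 in CBE_1, 18 and 21 in CBE_2 and 11 each in WT. Several CBE_1 regions were split into more than 1 peak, so CBE_1 had more peaks but fewer regions than WT. Peaks covered 10.3 and 11.3 kb of the window in CBE_1, 19.3 and 20.8 kb in CBE_2 and 8.47 and 8.20 kb in WT. The span of regions 11 to 14 made up 65.7% and 61.7% of that length in CBE_1 and 49.9% and 47.4% in CBE_2. Outside the span, peaks covered 3.53 and 4.31 kb in CBE_1, 9.66 and 11.0 kb in CBE_2 and 8.47 and 8.20 kb in WT. Without regions 11 to 14 the CBE_1 libraries were thus lower than WT and the CBE_2 libraries higher. Read depth is unknown, and lists of different length cannot be corrected for it.

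**Figure D5:**
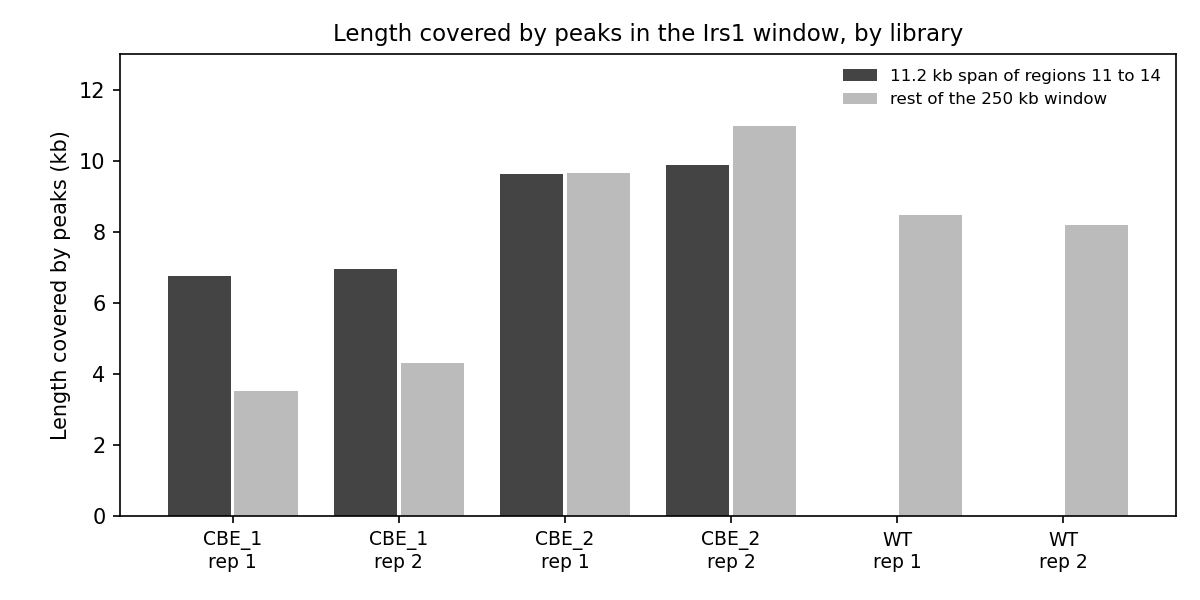
Length covered by peaks (y axis, kb) in the 11.2 kb span of regions 11 to 14 (dark bars) and in the rest of the window (light bars), for each library. The span is covered in CBE_1 and CBE_2 and has no bar in WT, and in the rest of the window CBE_1 lies below and CBE_2 above WT.

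The flanks had none of the mutated-only pattern. In the 1 Mb on the left of the window 0 of 22 regions were mutated-only, and in the 1 Mb on the right 0 of 27. The pattern's share over the genome was 1.52%, so its absence among so few regions is not read as a result. On the left, CBE_1 had 6 and 10 peaks, CBE_2 19 and 22 and WT 16 and 15. On the right, CBE_1 had 9 and 11, CBE_2 20 and 18 and WT 24 and 26. CBE_1 thus had fewer peaks than WT on both sides, while CBE_2 had more on the left and fewer on the right. These counts come from lists of unequal length. Per Mb of all peak length in its list, CBE_2 covered 195 and 193 bases on the right, against 185 and 190 in WT. The order on the right was thus reversed for CBE_2 by this measure of length, and the other orders were the same. As a share of the peaks in its list the order was not reversed. CBE_2 then had 0.0211% and 0.0185% on the right, against 0.0214% and 0.0245% in WT.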

How the data were processed

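The deposited data are 1 peak list per ATAC-seq library, 6 in all. The submitters' processing notes name Trimmomatic, Bowtie2, SAMtools, Picard and mm9. Nothing is said of the peak caller, its settings or a shift of reads for the transposase (not given in the sources used here), and read depth is unknown. In each deposited list a peak has a score, a summit, a fold (ratio) over background, and p- and q-values as −log10, all made by the authors. The score and the −log10 p-value were not used further.

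Peaks were merged at 1 bp overlap and ranked within each list by −log10 q-value with Python 3.11.15 and numpy 2.4.6. A region takes its best peak. Merging was tested on simulated lists. Positions are 1-based. Every region of the window is accounted for, with those of CBE_1 and CBE_2 alone or of all 6 lists in full. Replicates are numbered in accession order. No test was run. The members and lists were chosen with earlier results of these data known. A planned list of insulin pathway genes was not run, since the gene table is of another build.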

Additional observations from a re-analysis of the deposited data

Results flagged for a closer look

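At region 4 the mutated lines stood on opposite sides of WT, with both CBE_1 libraries below and both CBE_2 libraries above. The percentile among shared regions differed by -46.7 points on average, CBE_1 minus CBE_2. At region 5 the same difference was -66.7 points, with the same order of lines. This ranking was chosen after seeing the data. In the planned ranking within each whole list the differences were -36.9 points at region 4 and -52.6 at region 5, with the same order of lines. Region 4 stood there at 41.3 and 63.7 in CBE_1, 90.3 and 88.6 in CBE_2 and 87.1 and 86.2 in WT. Region 5 stood at 35.6 and 42.0 in CBE_1, 91.1 and 91.7 in CBE_2 and 85.5 and 84.3 in WT. At both, CBE_1 lay much further from WT than CBE_2 did. The difference between the lines was not tested: an exact permutation test of 2 libraries against 2 cannot reach 0.05, and no other test was run. Both regions lie in the window outside the span of regions 11 to 14.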

How the results depend on the processing

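The 3 mutated-only regions of the window were found with the better 50% of each list, with every list cut to its best 72318 peaks, with peaks joined only at 50% of the shorter peak and with the window 100 kb wider on either side. Leaving out each library gave 3 to 4 of them, the added one being region 10 without CBE_1 replicate 1. Cutting the lists, widening the window or leaving out a library could not remove these 3 regions. Their best peaks stood above both cuts, and WT had no peak there. These settings are thus no separate support for the pattern. With peaks joined within 500 bp the count was 0, because regions 10 to 15 then form 1 region that holds the WT peak of region 15. Regions present in all 6 libraries numbered 6, with 3 for the better 50% of each list (regions 7, 8 and 17) and 6 without each library in turn. The genome's share of mutated-only regions was 1.52%, and 2.96% with lists of the same length. WT-only regions numbered 0, and 1 without CBE_2 replicate 1 or with the wider window. Ranking by fold gave the same percentiles as ranking by q-value for every region of the window, regions 11, 13 and 14 included. Both values order the peaks alike there, so this is no separate check. Ranking among shared regions, chosen after seeing the data, changed the difference between CBE_1 and CBE_2 at region 15 to -21.0 points, against -34.0 within whole lists. In all, 10 of 73 recomputed values were flagged as moved, among them the count that fell from 3 to 0. The other 63 were not flagged, although the genome's share of mutated-only regions among them reached 2.23% without CBE_1 replicate 1. Some of the 63 could not move, such as the lowest CBE_1 and CBE_2 percentiles of regions 11, 13 and 14 without a WT library. The number 63 is thus no measure of stability. The recomputed differences between CBE_1 and CBE_2 kept their sign. Counts, shares and percentiles have no sign to change. No paired analysis was possible because the labels give the duplicates no shared numbers and no test was run. The lists hold no reads, so a signal in WT below the calling threshold cannot be seen, and a missing peak does not show closed chromatin.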
